A study of Homo sapiens with 28 samples.

Results

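ATF4 and the genes of the endoplasmic reticulum (ER) stress response were followed in SK-N-AS cells, an established human neuroblastoma line, after induction of MYCN. The set holds 37 genes, chosen by gene symbol or alias, of 19775 genes with a probe set. For 36 of them a probe set names the gene alone; the probe set of SYVN1 names a second gene as well and was not analysed here. CHAC1 and VLDLR were too dim for the filter on low values, so 34 members were tested among 11865 genes. The MYCN line (SK-N-AS-tet-MYCN) carries a MYCN transgene that doxycycline switches on, and it was measured on 21 Affymetrix arrays at 7 times after the drug, labelled 0, 4, 8, 24, 48, 96 and 192, with 3 replicates per time. The mock line (SKNAS-pcDNA6TR, the same cells with the tet repressor vector) was sampled after doxycycline at the same 7 times with 1 array each. The unit of time is not stated in the labels. Doxycycline was thus common to both lines, and the sources used here do not say whether either line is a single clone. The labels give replicate numbers without saying that these were separate cultures, so p-values measure the spread between these arrays, which may be technical. In bulk RNA, fewer cells of a type and less RNA per cell cannot be told apart.

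Proteins that enter the secretory pathway fold in the lumen of the ER with the help of chaperones such as BiP (HSPA5) and of disulfide isomerases. When unfolded protein accumulates, 3 sensors in the ER membrane respond. PERK (EIF2AK3) phosphorylates the translation factor eIF2, IRE1 (ERN1) splices the XBP1 transcript, and ATF6 is cut in the Golgi to release a transcription factor. Phosphorylated eIF2 lowers general translation and favours translation of ATF4, which is therefore regulated to a large part after transcription. Other eIF2 kinases reach the same point from amino acid shortage, heme shortage or double-stranded RNA, which is why this branch is called the integrated stress response. ATF4 pairs with C/EBP proteins and induces genes of amino acid supply, redox balance and translational feedback, whereas ATF6 and spliced XBP1 induce chaperones and the machinery that removes misfolded protein. MYCN is the driver gene of a high-risk form of neuroblastoma, and MYC proteins raise protein synthesis.

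The 2 arms are commonly told apart by elements in their promoters. RefSeq promoters of 300 bases (250 before and 50 after the start, assembly GRCh38.p14) were found for 35 of the 37 members and searched on both strands. The ER stress response element ERSE, written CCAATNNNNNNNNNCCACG, is the site of ATF6 together with NF-Y. It was present in 6 of 35 member promoters (17.1%), those of XBP1, HSPA5, HSP90B1, CALR, CANX and CRELD2, and in 0.0806% of all 27305 promoters. The shorter element ERSE-II, ATTGGNCCACG, was present in 3 of 35 (8.57%), those of HYOU1, SDF2L1 and HERPUD1, beside 0.0549% of all. The core of the unfolded protein response element, TGACGTGG, was found in HYOU1 alone (2.86%, 0.795% of all), where it overlaps an ERSE-II match. The C/EBP-ATF composite core that ATF4 dimers read, TGATGNAA, was found in ATF3, ASNS, CHAC1 and HERPUD1 (11.4%, 3.67% of all). By role, ERSE was in 5 of 13 promoters of ER-lumen chaperones and in 0 of 8 of ATF4 targets, and the composite core in 0 of 13 and 2 of 8. A match is a description of the letters in this window only.

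Of these stretches 8 are printed 5′ to 3′ on the strand of the gene, with the matched letters in capitals. HSPA5 and CRELD2 hold the same element but had unlike time courses, and XBP1 and HERPUD1 were among the genes higher at the last time. ASNS and CHAC1, the latter below the filter, had their highest reading in replicate 1 of time 192. So did TRIB3, STC2 and DDIT3, which hold no composite core in this window. ATF3, which holds it, read highest in replicate 1 of time 0 (149). A link between element and time course was not tested. Where the element lies on the other strand, its reverse complement is in capitals.
HSPA5, chr9:125241376-125241424, minus strand: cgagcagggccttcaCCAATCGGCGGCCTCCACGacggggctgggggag
CRELD2, chr22:49918539-49918587, plus strand: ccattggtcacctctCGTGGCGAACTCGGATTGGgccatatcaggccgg
XBP1, chr22:28800588-28800636, minus strand: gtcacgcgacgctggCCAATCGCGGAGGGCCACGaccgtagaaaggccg
HYOU1, chr11:119057259-119057299, minus strand: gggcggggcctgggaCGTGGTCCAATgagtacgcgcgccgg
SDF2L1, chr22:21642099-21642139, plus strand: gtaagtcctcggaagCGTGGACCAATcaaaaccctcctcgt
HERPUD1, chr16:56932010-56932050, plus strand: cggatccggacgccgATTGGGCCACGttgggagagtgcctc
ASNS, chr7:97872454-97872491, minus strand: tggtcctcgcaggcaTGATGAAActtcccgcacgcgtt
CHAC1, chr15:40953247-40953284, plus strand: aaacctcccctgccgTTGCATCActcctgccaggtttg
Relative to the start site, the first capital as printed lies at -66, -80, -52, -79, -188, -117, -68 and -209, in the order given. TRIB3, STC2, CEBPB, DNAJB9 and ERN1, which rose, hold none of the 4 words in this window.

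The values are MAS5 signal intensities, scaled by array to a trimmed mean of 100. MYCN, the labelled transgene, read 69.4 to 103.4 at time 0, 3065 to 3273 at time 192, and 1.6 to 3 in the mock line. Spiked hybridisation controls separated the arrays: bioD read 1544 to 1941 in replicates 1 and 2, 2322 to 2558 in replicate 3, and 2377 to 2770 in the mock line. The GAPDH 3′ to 5′ ratio lay between 0.993 and 1.19, and the median signal of an array between 12.9 and 20.2. Of 8 mesenchymal neuroblastoma markers 7 were above the filter (VIM 4559 to 6908), and of 7 noradrenergic markers 5, with TH and DBH at background (8.7 or less). The filter took the mean over all 28 arrays, and PHOX2A passed it through the mock line. In the MYCN line PHOX2A was at background, although it is 1 of the 5 noradrenergic markers tested there. The lines differed in such markers: PHOX2A read 582 to 1133 in the mock line and 1.2 to 15.4 in the MYCN line, and the blood marker PTPRC 198 to 262 and 1 to 36.2. Markers also moved with time in the MYCN line: at time 192 PTPRC fell by 2.99 on the log2 scale, 1 of 7 tested mesenchymal markers rose and 2 fell (-2.99 to 1.37), and 2 of 5 noradrenergic markers rose and 1 fell (-0.43 to 0.998). Their part in the results was not tested. CD14, CD3E, CDH5, VWF, EPCAM, CDH1 and KRT19 were at background (15.9 or less). The endothelial marker PECAM1 was not: it read 29 to 62.9 in the mock line and 41.3 to 132 in the MYCN line. It was called higher at time 48 in the MYCN line (0.83).

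Members changed late, mainly between times 48 and 192, and in both directions. At time 4 none of the 34 passed (limma, Benjamini-Hochberg adjusted p under 0.05 over all genes), beside 0.00843% of all genes tested. Before adjustment, 0 members were higher and 2 lower with p under 0.05, beside 285 and 493 of all 11865 genes. At time 8 DNAJB9 rose and MANF fell (5.88% of members; 0.767% of all genes were called, 0.59% higher and 0.177% lower). At time 24 DNAJB9 rose and CRELD2 fell (5.88%; 7.18% of all genes, 3.91% higher and 3.27% lower). At time 48, 5 members rose and 1 fell (17.6%; 14.7% of all genes, 7.04% higher and 7.67% lower). At time 96, 6 rose and 4 fell (29.4%; 23.4% of all genes, 10.3% higher and 13.2% lower). At time 192, 8 rose and 1 fell (26.5%; 25.8% of all genes, 11.6% higher and 14.1% lower), so the share of members called at the last time was close to that of the array as a whole. Over the 6 times together 12 of 34 passed an F-test (35.3%, 25.4% of all genes): CEBPB, CRELD2, DNAJB11, DNAJB9, DNAJC3, EDEM1, EIF4EBP1, ERN1, MANF, STC2, TRIB3 and XBP1. Members with all 3 arrays above all 3 of time 0 numbered 2, 3, 7, 7, 5 and 9 at times 4, 8, 24, 48, 96 and 192, beside 4.14%, 7.25%, 12%, 12.3%, 15.7% and 16.5% of all genes. Members with all 3 below numbered 4, 8, 6, 6, 7 and 2, beside 7.28%, 8.82%, 14.9%, 15%, 19.4% and 19.6%. All of these comparisons share the 3 arrays of time 0. With each array's median set equal, the numbers higher were 0, 2, 2, 3 and 4 at times 8, 24, 48, 96 and 192, in place of 1, 1, 5, 6 and 8; the 4 at time 192 were EIF4EBP1, ERN1, STC2 and TRIB3. With a replicate number left out at all times, time 48 had 1 member higher without replicate 1 (DNAJB9), 0 without replicate 2 and 5 without replicate 3, and time 192 had 4, 5 and 8. The share of all genes called was not counted with equal array medians or with a replicate number left out. These lower counts therefore cannot be read as particular to the members.

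**Figure D1:**
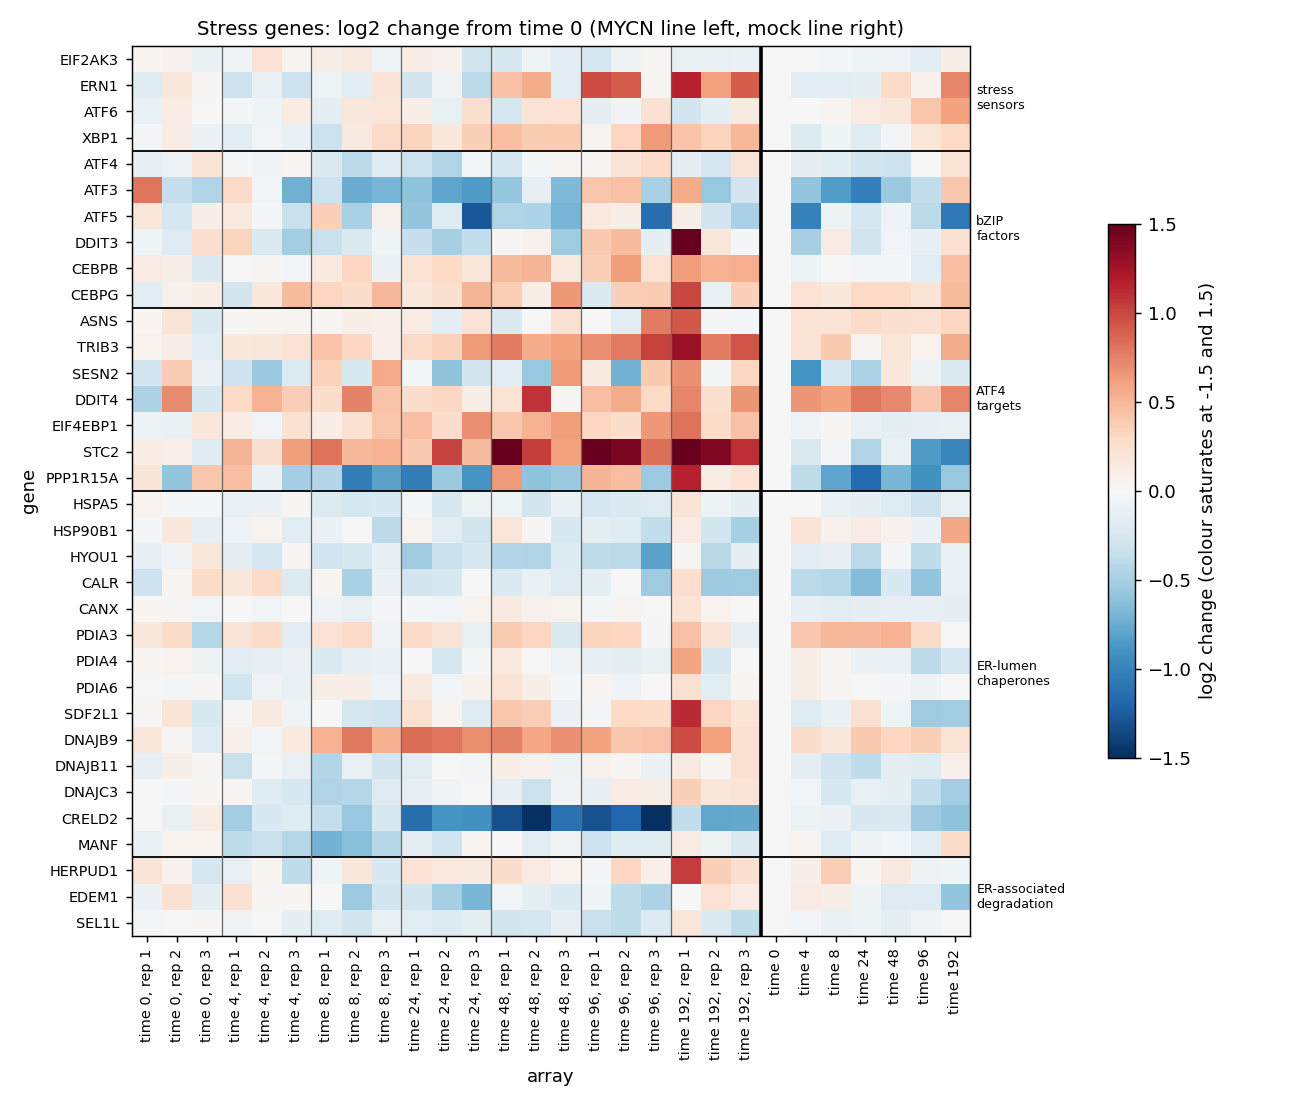
Each row is 1 of the 34 members tested and each column 1 array; colour gives the log2 signal less the mean of the 3 arrays of time 0 (MYCN line, left) or less the mock array of time 0 (right), saturating at 1.5. TRIB3, STC2 and DNAJB9 turn red with time and CRELD2 blue, while most chaperones stay pale, and in the array of replicate 1 at time 192 reds appear in several rows at once.

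Among the sensors and XBP1, ERN1 and XBP1 rose in the MYCN line by time 192 and EIF2AK3 and ATF6 did not pass the test at any time. ERN1 encodes IRE1, the sensor that splices XBP1. Signals are given in the order of replicates 1, 2 and 3. ERN1 read 58.4, 74.3 and 66.7 (time 0), 53.2, 61.5 and 53.2 (time 4) and 63.5, 59.5 and 75.7 (time 8). ERN1 then read 54.7, 63.7 and 49.8 (time 24), 89.5, 97.5 and 58.9 (time 48), 130.5, 124 and 68.2 (time 96) and 148, 102 and 124 (time 192). ERN1 in the mock line read 70.1, 62.4, 62.7, 63.5, 85.3, 73.2 and 116 at the 7 times. At time 192 all 3 arrays of the MYCN line lay above those of time 0, a 1.86-fold rise (0.90, SE 0.23, adjusted p = 0.00626), and at time 96 replicate 3 stayed at the level of time 0. The call at time 96 (0.64, SE 0.23, adjusted p = 0.0466) was lost when any 1 of 5 of the 6 arrays compared was left out, all but replicate 3 of time 96, and the call at time 192 ended without replicate 1 at all times. The single mock array of time 192 was also the highest of its line, 0.73 above time 0 on the log2 scale, and a difference in trend between the lines was not called (adjusted p = 0.578).

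XBP1 encodes the factor that the IRE1 splice turns into an active transcriptional regulator; its spliced and unspliced forms were not measured separately here. XBP1 read 139.5, 152 and 133 (time 0), 126, 137 and 132 (time 4) and 113, 155 and 172 (time 8). XBP1 then read 179, 157 and 181 (time 24), 192, 185 and 185 (time 48), 145, 176 and 221 (time 96) and 190.5, 178 and 199 (time 192). XBP1 in the mock line read 169.5, 147, 162, 149, 164, 192 and 209 at the 7 times. Its arrays at times 24, 48 and 192 all lay above those of time 0, and the change at time 192 was 1.34-fold (0.42, SE 0.15, adjusted p = 0.0409). That call is marginal: it ended when any 1 of the 6 arrays was left out. The mock array of time 192 read 209, above the 169.5 of time 0.

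ATF6 encodes the sensor that is itself a transcription factor. ATF6 read 296, 346 and 318 (time 0), 315, 305 and 346 (time 4) and 289, 360.3 and 361 (time 8). ATF6 then read 343, 296 and 378 (time 24), 269, 367 and 369.5 (time 48), 288, 308 and 374 (time 96) and 261, 291 and 350.8 (time 192). ATF6 in the mock line read 294, 296, 300.1, 322, 331, 392 and 448 at the 7 times. In the MYCN line the arrays of each later time overlapped those of time 0 (-0.10, SE 0.14, adjusted p = 0.686 at time 192), whereas in the mock line ATF6 rose along the time steps (0.10 log2 units per step, adjusted p = 0.0398; 1 of 2 members called, 5.88%, beside 3.13% of all genes, 1.61% higher and 1.52% lower). The mock trend is no longer called when any 1 mock array other than that of time 0 is left out. EIF2AK3, which encodes PERK, read 199 to 278 over the 21 arrays and 234 to 276 in the mock line; at time 192 its 3 arrays read 222, 222 and 223, below all 3 of time 0 but without passing the test (-0.11, SE 0.11, adjusted p = 0.524).

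Of the 6 bZIP transcription factors CEBPB rose at times 48, 96 and 192. This 1 of 6 (16.7%) stands beside 14.7%, 23.4% and 25.8% of all genes called, a share near or above it. ATF4 itself passed at no time without a block. At time 24 (-0.27) it was called lower with the replicate number as a block (limma, adjusted p = 0.0348) or the hybridisation group (adjusted p = 0.0342). That group sets replicate 3 against replicates 1 and 2, as the bioD readings split, and the labels do not name it. ATF4 is the factor whose translation the eIF2 kinases switch on. ATF4 read 1129, 1164 and 1404 (time 0), 1208, 1187 and 1264 (time 4) and 1052, 925 and 1071 (time 8). ATF4 then read 990.2, 898 and 1193 (time 24), 1022, 1204 and 1261 (time 48), 1247, 1407 and 1496 (time 96) and 1104, 1032 and 1405 (time 192). ATF4 in the mock line read 1278, 1159, 1131, 1053, 1031, 1274 and 1477 at the 7 times. The transcript stayed between 898.5 and 1496 in all 21 arrays; its time 8 arrays all lay below those of time 0 (-0.27, SE 0.12, adjusted p = 0.46). The change was 0.17 at time 96 and -0.07 (adjusted p = 0.74) at time 192, with overlapping arrays. Protein was not measured.

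CEBPB encodes C/EBP-beta, one of the partners of ATF4. CEBPB read 1328, 1299 and 1055 (time 0), 1219, 1235 and 1188 (time 4) and 1349, 1532 and 1146 (time 8). CEBPB then read 1419, 1501 and 1378 (time 24), 1694, 1734 and 1354 (time 48), 1570, 1888 and 1413 (time 96) and 1878, 1746 and 1784 (time 192). CEBPB in the mock line read 782, 742, 777, 767, 774, 694 and 1067 at the 7 times. All 3 arrays of times 24, 48, 96 and 192 lay above those of time 0, and the change grew from 0.38 (SE 0.12, adjusted p = 0.038) at time 48 to 0.56 (SE 0.12, adjusted p = 0.00159), 1.48-fold, at time 192. The calls at time 48 and 96 ended without single arrays (3 and 2 of 6, replicate 2 of the later time and replicate 3 of time 0 in both cases, and replicate 1 of time 48), and the call at time 192 did not. The mock line stayed between 694.5 and 782 until time 96 and read 1067 at time 192, and the trends of the lines were not called different (adjusted p = 0.202).

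DDIT3 encodes CHOP, the factor tied to cell death under unresolved stress. DDIT3 read 82.9, 75.9 and 104 (time 0), 109, 74.8 and 60.3 (time 4) and 68.9, 74.7 and 83.0 (time 8). DDIT3 then read 68.0, 61.3 and 67.0 (time 24), 87.7, 90.5 and 59.9 (time 48), 114, 120.2 and 78.3 (time 96) and 255, 97.9 and 85.1 (time 192). DDIT3 in the mock line read 104, 74.1, 114, 84.9, 101.2, 96.2 and 122 at the 7 times. A single array, that of replicate 1 at time 192, stood at 255, more than the highest of the other 20 (120). Its mean change at time 192 was 0.57 (SE 0.31) and did not pass the test (adjusted p = 0.19). ATF3, a repressor of the same family, had 149 in replicate 1 of time 0 and 47.6 to 126 in the other 20 arrays, with changes between -0.75 at time 24 and 0.12 at time 96. ATF5 changed by -0.68 at time 24 and -0.22 at time 192, and CEBPG, a partner of ATF4, by 0.42 (SE 0.24) at time 192, none past the test. With the replicate block ATF3 was called lower at time 24 (adjusted p = 0.0478).

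Of 7 ATF4 targets tested, 3 (TRIB3, STC2 and EIF4EBP1) rose at times 48, 96 and 192 and none fell. That is 42.9% higher, beside 7.04%, 10.3% and 11.6% of all genes higher and 7.67%, 13.2% and 14.1% lower at these times. TRIB3 encodes a pseudokinase that feeds back on ATF4 and inhibits AKT. TRIB3 read 277, 284 and 239 (time 0), 297, 299.9 and 309.8 (time 4) and 357, 331 and 280.2 (time 8). TRIB3 then read 324, 337 and 416 (time 24), 453, 390.0 and 403 (time 48), 428, 456 and 542 (time 96) and 652, 454 and 512 (time 192). TRIB3 in the mock line read 182, 211, 240.3, 188, 208, 189 and 267 at the 7 times. The mean of the MYCN line was higher at each time than at the one before, from 267 ± 24.5 (SD, n = 3) at time 0 to 539 ± 102 (SD, n = 3) at time 192, and its arrays lay above those of time 0 at times 4, 24, 48, 96 and 192. The change was 0.64 (SE 0.13, adjusted p = 0.00329) at time 48, 0.83 (adjusted p = 0.000205) at time 96 and 1.003 (SE 0.13, adjusted p = 2.51e-05) at time 192, a 2-fold rise at the last time. No single array left out ended these 3 calls; that at time 48 ended without replicate 1 or replicate 2 at all times. The mock line read highest at time 192 as well (267), with no trend called (adjusted p = 0.486).

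STC2 encodes stanniocalcin-2, a secreted glycoprotein induced by ER stress. STC2 read 82.7, 80.9 and 67.0 (time 0), 109, 90.2 and 118 (time 4) and 135, 107 and 109.7 (time 8). STC2 then read 100.3, 155 and 106 (time 24), 223, 158 and 118 (time 48), 259, 204 and 136 (time 96) and 442, 199.8 and 165 (time 192). STC2 in the mock line read 98.1, 84.1, 96.9, 72.0, 90.7, 54.6 and 49.3 at the 7 times. The 2 lines went apart: the MYCN line rose from 76.9 ± 8.59 (SD, n = 3) to 269 ± 151 (SD, n = 3), with all 3 arrays above time 0 at each of the 6 later times, and the mock line ended at its lowest reading. The change was 1.07, SE 0.30, adjusted p = 0.022 at time 48, 1.33, SE 0.30, adjusted p = 0.00329 at time 96 and 1.67, SE 0.30, adjusted p = 0.000423 at time 192, when it was 3.19-fold. Replicate 1 of time 192 read more than both other replicates, and without it the change was 1.25 (adjusted p = 0.00265). The call at time 48 ended without replicate 1 or 2 of that time or replicate 3 of time 0, and that at time 96 without replicate 2 at all times.

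EIF4EBP1 encodes the repressor that holds the cap-binding factor eIF4E. EIF4EBP1 read 448, 443 and 534 (time 0), 513, 461 and 556 (time 4) and 506, 552 and 632 (time 8). EIF4EBP1 then read 645, 567 and 761 (time 24), 628, 679 and 731 (time 48), 588, 567 and 745 (time 96) and 832, 571 and 640.4 (time 192). EIF4EBP1 in the mock line read 684, 659, 697, 639, 621, 628 and 631 at the 7 times. All 3 arrays of times 24, 48, 96 and 192 lay above those of time 0, while the mock line kept within 621 and 697. The change was 0.52, SE 0.14, adjusted p = 0.0188 at time 48, 0.41, SE 0.14, adjusted p = 0.0431 at time 96 and 0.51, SE 0.14, adjusted p = 0.0123 at time 192. The call at time 192 ended without replicate 1 of that time or replicate 2 of time 0, that at time 96 without any 1 of 4 arrays (replicates 1 and 3 of time 96, 1 and 2 of time 0), and that at time 48 without replicate 2 of that time or replicate 1 or 2 of time 0.

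The other 4 tested targets did not pass at any time. ASNS, asparagine synthetase, changed by 0.29 (SE 0.23) at time 192, where its 3 arrays read 882, 454 and 458 against 473, 529 and 397 at time 0. Replicate 3 of time 96 also read high for ASNS (795), and the other 19 arrays of the line lay between 397 and 542. DDIT4, an inhibitor of mTORC1, changed by 0.55 (adjusted p = 0.125), SESN2, a leucine sensor of the same pathway, by 0.33 (adjusted p = 0.514), and PPP1R15A, the subunit that directs eIF2 dephosphorylation, by 0.50 (adjusted p = 0.352). PPP1R15A had been -0.83 at time 24 (adjusted p = 0.188). CHAC1, which degrades glutathione, read 12.1, 7.3 and 5.7 at time 0 and 50.5, 13.8 and 23.8 at time 192; without the filter its change of 1.68 had an adjusted p of 0.123. VLDLR, a lipoprotein receptor, read 2.6 to 9.3 in the MYCN line.

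**Figure D2:**
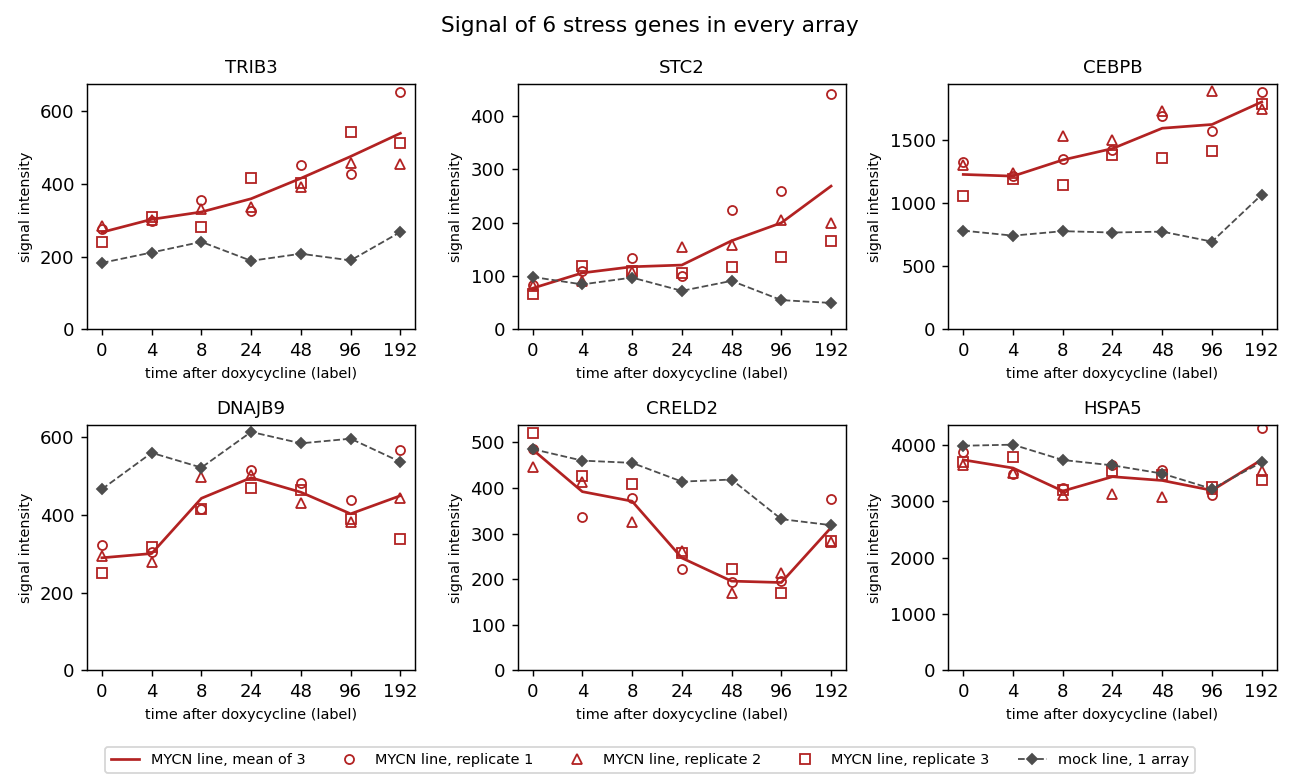
Signal intensity (linear axis from 0) of TRIB3, STC2, CEBPB, DNAJB9, CRELD2 and HSPA5 against the time label, with 1 open red symbol per replicate, a red line through the mean of the 3 MYCN-line arrays and grey diamonds for the single mock array per time. The means of TRIB3 and STC2 climb in the MYCN line, where the mock arrays of TRIB3 stay between 182.5 and 267 and those of STC2 end at 49.3, DNAJB9 reaches its highest mean at time 24, CRELD2 falls until time 96 and lies higher again at time 192, and HSPA5 in the MYCN line keeps between 3076 and 4296.

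The 14 ER-lumen chaperones and folding enzymes (CANX sits in the ER membrane) had 14.3% of members called at times 8, 24, 48 and 192, 28.6% at time 96 and 35.7% by the F-test. For all genes these shares were 0.767%, 7.18%, 14.7% and 25.8%, then 23.4% and 25.4%. DNAJB9 rose from time 8 on, CRELD2 fell from time 24 on, MANF fell at time 8, HSPA5 and HYOU1 fell at time 96, and the other 9 passed at no single time. DNAJB9 encodes ERdj4, a co-chaperone that XBP1 induces. DNAJB9 read 323, 294 and 251 (time 0), 304, 279.5 and 317 (time 4) and 414, 497 and 415 (time 8). DNAJB9 then read 515, 502 and 467 (time 24), 481, 429 and 463 (time 48), 437, 381 and 388 (time 96) and 566, 442 and 338 (time 192). DNAJB9 in the mock line read 465, 559, 521, 612, 583, 595 and 535 at the 7 times. It had its highest mean in the MYCN line at time 24, 495 ± 24.7 (SD, n = 3) against 289 ± 36.0 (SD, n = 3) at time 0, and its arrays lay above time 0 at each of times 8 to 192. The change was 0.61, SE 0.14, adjusted p = 0.0422 at time 8, 0.78, SE 0.14, adjusted p = 0.00168 at time 24 and 0.61, SE 0.14, adjusted p = 0.00313 at time 192. The mock line, which began higher, read more at all 6 later times than at time 0 too, and the difference in trend was not called (adjusted p = 0.388). The call at time 8 ended when any 1 of the 6 arrays was left out, and that at time 96 without replicate 1 of that time or replicate 3 of time 0. Without replicate 2 at all times DNAJB9 was called at none of the times.

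CRELD2 encodes a disulfide isomerase-like protein of the lumen that ER stress induces. CRELD2 read 486, 447 and 521 (time 0), 337, 413 and 426 (time 4) and 378, 326 and 409 (time 8). CRELD2 then read 221, 261 and 258 (time 24), 194, 171 and 222 (time 48), 196, 213 and 169.8 (time 96) and 375, 281 and 284 (time 192). CRELD2 in the mock line read 485, 460.0, 455, 414, 418, 332 and 318 at the 7 times. In the MYCN line it fell by time 96 to 193 ± 21.6 (SD, n = 3) from 484 ± 37.0 (SD, n = 3), a 2.52-fold fall, and all 3 arrays lay below time 0 at each of the 6 later times. The change was -0.97, SE 0.14, adjusted p = 0.000214 at time 24, -1.31, SE 0.14, adjusted p = 5.12e-06 at time 48, -1.33, SE 0.14, adjusted p = 2.16e-06 at time 96 and -0.64, SE 0.14, adjusted p = 0.0019 at time 192. No single array left out ended these 4 calls. CRELD2 fell in the mock line too (-0.10 per step, adjusted p = 0.0318), reaching 318 at time 192 beside 281 to 375 in the MYCN line, and the difference in trend was not called (adjusted p = 0.482). The mock trend was lost without the array of time 4, 8, 24, 96 or 192.

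HSPA5 encodes BiP, the main chaperone of the lumen, which also binds the sensors and holds them inactive. HSPA5 read 3868, 3648 and 3693 (time 0), 3488, 3502 and 3785 (time 4) and 3234, 3114 and 3200 (time 8). HSPA5 then read 3648, 3135 and 3530 (time 24), 3560, 3076 and 3476 (time 48), 3115, 3211 and 3259 (time 96) and 4296, 3538 and 3384 (time 192). HSPA5 in the mock line read 3987, 4006, 3734, 3639, 3493, 3221 and 3693 at the 7 times. Its 3 arrays lay below those of time 0 at times 8, 48 and 96, and at time 192 the mean was near that of the start, 3739 ± 489 (SD, n = 3) at time 192 and 3736 ± 116 (SD, n = 3) at time 0, with a change of -0.01 (SE 0.08). The fall at time 96 was 1.17-fold (-0.23, SE 0.08, adjusted p = 0.0457) and ended when any 1 of the 6 arrays was left out; the mock array of time 96 was the lowest of its line as well.

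HYOU1 encodes GRP170, a nucleotide exchange factor of BiP. HYOU1 read 486, 510.2 and 597 (time 0), 479.5, 445 and 538 (time 4) and 434, 447 and 484 (time 8). HYOU1 then read 366, 419 and 452 (time 24), 389, 388 and 459 (time 48), 407, 398 and 303 (time 96) and 544, 395 and 480.5 (time 192). HYOU1 in the mock line read 459, 412, 422, 351.3, 452, 352 and 430.4 at the 7 times. At time 96 all 3 arrays lay below those of time 0 (-0.53, SE 0.13, adjusted p = 0.00678), and the call held without any single array but ended without replicate 2 or replicate 3 at all times. At time 192 the arrays overlapped those of time 0 (-0.17, adjusted p = 0.373).

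SDF2L1 and DNAJC3 were called for the difference in trend between the lines and not at a single time. SDF2L1 encodes a partner of BiP and ERdj3. SDF2L1 read 127, 145 and 107 (time 0), 127, 138 and 121 (time 4) and 125, 105 and 102 (time 8). SDF2L1 then read 146, 129 and 110.0 (time 24), 166, 162 and 118 (time 48), 123, 154 and 151 (time 96) and 273, 156 and 144 (time 192). SDF2L1 in the mock line read 142, 124, 133, 166, 136, 97.8 and 98.6 at the 7 times. Replicate 1 of time 192 was the highest of its 21 arrays, and the change at time 192 missed the threshold (0.55, SE 0.20, adjusted p = 0.0504). With the replicate number as a block, which pairs the arrays at this time, it passed (adjusted p = 0.0168).

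DNAJC3 encodes P58IPK, a co-chaperone first known as an inhibitor of eIF2 kinases. DNAJC3 read 155, 152 and 159 (time 0), 158, 137 and 132 (time 4) and 114, 115 and 136 (time 8). DNAJC3 then read 142, 149 and 155 (time 24), 142, 124 and 149 (time 48), 143, 168 and 165 (time 96) and 199, 175 and 178 (time 192). DNAJC3 in the mock line read 172, 167, 146, 159, 154, 133 and 119.7 at the 7 times. The 3 arrays of time 8 lay below those of time 0 (-0.36, SE 0.11, adjusted p = 0.185) and the 3 of time 192 above them (0.24, SE 0.11, adjusted p = 0.121), neither past the test, while the mock line read lowest at time 192.

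MANF, a secreted factor of the lumen, fell at time 8 (-0.59, SE 0.10, adjusted p = 0.0115), when its arrays read 338, 356 and 409 against 514, 573 and 573. That call ended without replicate 1 or 2 of time 8 or replicate 3 of time 0, and at time 192 the change was -0.06. The remaining 7 members of this group passed at no single time. At time 192 HSP90B1 (GRP94) changed by -0.22, the lectin chaperones CALR and CANX by -0.28 and 0.09, the disulfide isomerases PDIA3, PDIA4 and PDIA6 by 0.17, 0.11 and 0.03, and the co-chaperone DNAJB11, called only by the F-test over all times, by 0.13. With the replicate block PDIA3 was called higher (0.21, adjusted p = 0.0352) and HSP90B1 lower (-0.23, adjusted p = 0.0487) at time 96.

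In ER-associated degradation 1 of 3 tested genes rose at time 192 and 1 fell at time 96 (33.3% each, beside 25.8% and 23.4% of all genes called). HERPUD1 encodes a membrane protein of the degradation complex. HERPUD1 read 573, 524 and 423 (time 0), 466, 514 and 387 (time 4) and 482, 564 and 430.5 (time 8). HERPUD1 then read 583, 558 and 549.9 (time 24), 604, 547 and 520.2 (time 48), 493, 624 and 528 (time 96) and 1044, 646 and 592 (time 192). HERPUD1 in the mock line read 494, 524, 638, 506, 543, 467 and 472 at the 7 times. Its arrays at time 192 all lay above time 0 (0.55, SE 0.17, adjusted p = 0.0219), with replicate 1 far above the other 2, and the call ended without replicate 1 of time 192 or replicate 3 of time 0. The HERPUD1 call also ended with the mean of its 2 probe sets, with equal array medians and with only the arrays of the 2 times. It ended without replicate 1 or replicate 2 at all times as well. SEL1L encodes the adaptor of the ubiquitin ligase SYVN1. SEL1L read 482, 490.3 and 497 (time 0), 471, 491 and 447 (time 4) and 433, 403 and 454 (time 8). SEL1L then read 437, 426 and 445 (time 24), 404, 408 and 448 (time 48), 387, 376 and 425 (time 96) and 557, 422 and 376 (time 192). SEL1L in the mock line read 461, 449.7, 429, 439, 419.8, 444 and 461 at the 7 times. All 3 arrays of time 96 lay below those of time 0 (-0.31, SE 0.11, adjusted p = 0.0437), a call that ended without any 1 of 5 arrays, all but replicate 3 of time 96. EDEM1, which extracts misfolded glycoproteins, read 45.1 to 85.3 in the MYCN line and changed by -0.49 at time 24 (adjusted p = 0.082; 0.0348 with the replicate block).

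Set side by side, the 7 ATF4 targets tested had a higher median change than the chaperones at each time. The wider list of ATF4 targets given below had smaller medians. The median log2 change of the 7 ATF4 targets was 0.10, 0.25, 0.22, 0.44, 0.41 and 0.51 at times 4, 8, 24, 48, 96 and 192. For the 14 chaperones it was -0.09, -0.18, -0.08, 0.01, -0.06 and 0.06, and for all genes tested it lay between -0.03 and -0.02. At time 192, 7 of 7 ATF4 targets and 8 of 14 chaperones had a change above 0, beside 5562 of 11865 genes. By array, the median of the ATF4 targets lay between 0.24 and 0.93 at time 192 (SD 0.355 over 3 arrays) and that of the chaperones between -0.08 and 0.21 (SD 0.164). These medians did not overlap, but the single genes did. Their changes at time 192 ran from 0.29 to 1.67 for the targets and from -0.64 to 0.61 for the chaperones. Without replicate 1 of time 192 the medians were 0.35 and -0.09. In the single mock arrays of times 4, 8, 24, 48, 96 and 192 the medians of the targets were -0.05, 0.03, -0.10, 0.16, -0.08 and -0.12. Those of the chaperones were -0.02, -0.10, -0.10, -0.08, -0.24 and -0.10, so the targets lay higher at times 8, 48 and 96 there too. With probe sets of the types _s_at and _x_at (shared by transcripts or less specific) left out, the median of the ATF4 targets was 1.003 at time 192. That setting also changed the genes in the list: the only probe set of DDIT4, which was not called, is an _s_at one. The median of 1.003 is the change of TRIB3 itself, so it cannot be set against the 0.51 of the 7 targets.

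**Figure D3:**
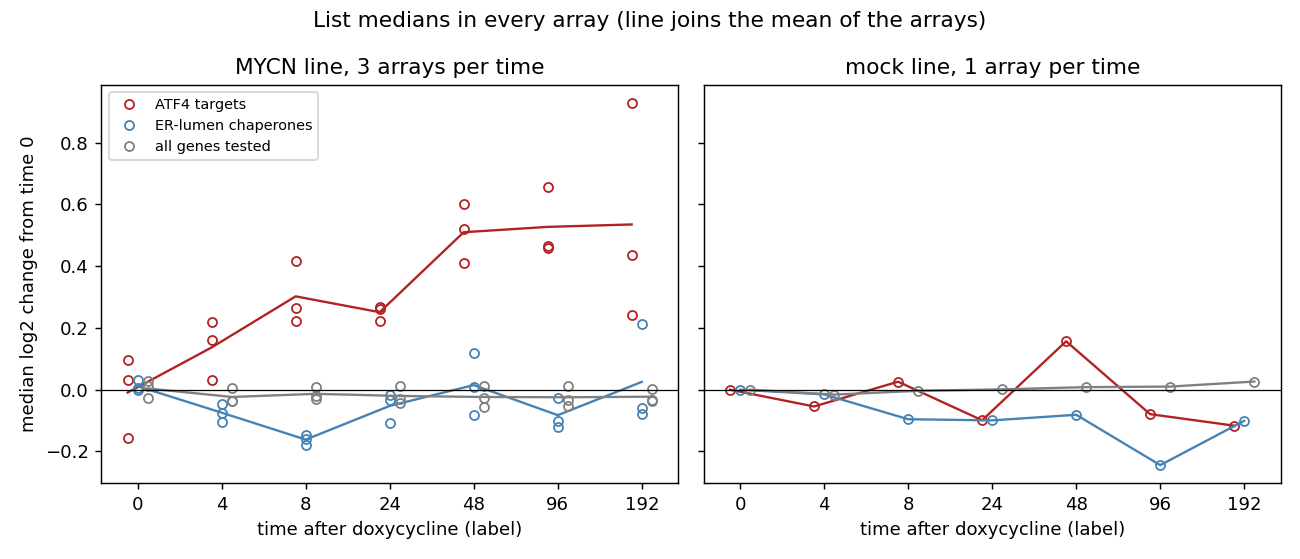
Median log2 change from time 0 of the 7 ATF4 targets (red), the 14 ER-lumen chaperones (blue) and all genes tested (grey), with 1 circle per array and a line through the mean of the arrays at each time, for the MYCN line (left) and the mock line (right). In the MYCN line the ATF4 targets lie between 0.41 and 0.66 at times 48 and 96 and spread from 0.24 to 0.93 at time 192, above the chaperones at each time from 8 on.

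Of 26 further ATF4 targets tested, 11 rose and 2 fell at time 192 (50%, beside 25.8% of all genes, 11.6% higher and 14.1% lower). In the difference in trend between the lines the same list had 8 higher and 5 lower (50%, beside 24% of all genes, 11.2% higher and 12.8% lower). Its median there was -0.02, with 12 values above 0 and 14 below. The 3 with the smallest F-test p were SLC7A5, the leucine transporter (2.20, SE 0.31, adjusted p = 3.95e-05), MTHFD2, the mitochondrial folate enzyme (0.64, SE 0.10, adjusted p = 9.74e-05), and PSAT1 of serine synthesis (0.83, SE 0.13, adjusted p = 0.000139). SLC7A5 read 121, 60.8 and 81.7 at time 0 and 457, 402 and 317 at time 192. In the mock line it fell (-0.16 per step, adjusted p = 0.0453), and the difference in trend was 0.52 (adjusted p = 8.68e-06). Of 41 further ER stress genes (translocation, glycosylation, oxidation, degradation), 3 rose and 4 fell at time 192 (17.1%, beside the 25.8% of all genes). Their leading 3 went different ways: SSR2, a translocon subunit, changed by -0.43 (adjusted p = 3.87e-05), and the oxidases ERO1B and ERO1A by 1.24 (adjusted p = 9.54e-05) and 0.62 (adjusted p = 2.35e-05). Of 13 genes of eIF2, its exchange factor and its kinases, 3 rose and 2 fell at time 192 (38.5%, beside the 25.8% of all genes). EIF2AK4, the kinase GCN2 that senses uncharged tRNA, rose (0.47, SE 0.09, adjusted p = 0.000639), and EIF2B1, a subunit of the exchange factor, and PPP1R15B, a phosphatase subunit, fell (-0.33, adjusted p = 0.00262, and -0.36, adjusted p = 0.0165).

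The 3 arrays of time 192 differed among themselves in these genes more than in most others. The array of replicate 1 was the highest of the 3 for 28 of the 34 members (82.4%), beside 31.9% of all genes tested, and replicates 2 and 3 were highest for 1 and 5 (27.9% and 40.2% of all genes). At the 6 other times replicate 1 was the highest for 8, 6, 9, 13, 17 and 11 of 34, in the order of the times, beside 26.2%, 25.5%, 27.1%, 29.8%, 30.8% and 25% of all genes. By role it was highest for 7 of 7 ATF4 targets, 13 of 14 chaperones, 5 of 6 bZIP factors, 2 of 3 degradation genes and 1 of 4 sensors. Outside the members it was highest for 19 of 26 further ATF4 targets, 14 of 41 further ER stress genes and 10 of 13 genes of eIF2, its exchange factor and its kinases. The median change from time 0 in replicates 1, 2 and 3 was 0.93, 0.24 and 0.44 for ATF4 targets, 0.21, -0.08 and -0.06 for chaperones, and -0.03, -0.04 and 0.0017 for all genes.

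In size, replicate 1 exceeded the mean of the other 2 by more than 0.5 on the log2 scale in 13 of 34 members (38.2%), beside 6.92% of all genes. It did so in 8 of 26 further ATF4 targets, 0 of 41 further ER stress genes and 0 of 13 eIF2 and kinase genes. The gap was 1.48 for DDIT3, 1.28 for STC2, 1.01 for PPP1R15A, 0.98 for ATF3, 0.95 for ASNS, 0.88 for CEBPG, 0.86 for SDF2L1, 0.79 for CALR, 0.76 for HERPUD1 and 0.71 for PDIA4. It was 0.09 for CEBPB, -0.13 for ATF4, -0.29 for ATF6 and 0.02 for XBP1. HMOX1, the heme oxygenase of oxidative stress, was picked because it was already known to vary among these 3 arrays. It read 1436, 437 and 288 in them, which adds no separate support for the difference. MYCN read 3273, 3065 and 3242 there, and the bioD control (1571), the median signal (13.4) and the ACTB 3′ to 5′ ratio (1.11) of replicate 1 were within the range of the other arrays of replicates 1 and 2, while its GAPDH ratio (0.993) was the lowest of the 28. The part of these measures in the difference was not tested.

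**Figure D4:**
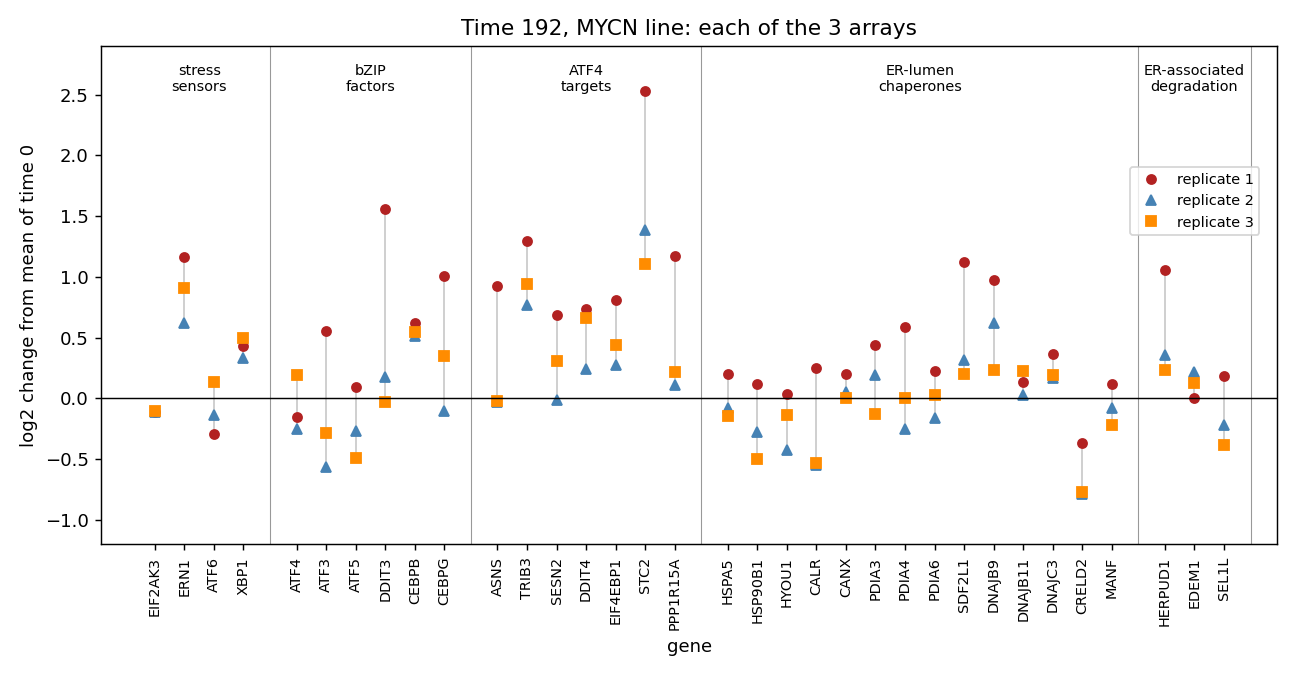
Log2 change from the mean of time 0 for each of the 34 members in the 3 arrays of time 192 (circles replicate 1, triangles replicate 2, squares replicate 3), grouped by role; a grey line joins the 3 arrays of a gene. Replicate 1 is the highest for 28 of 34 genes, with the widest gap at DDIT3 (1.48).

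Left without that array, time 192 had 5 members higher (CEBPB, DNAJB9, ERN1, STC2 and TRIB3) and 3 lower (CALR, CRELD2 and SEL1L), beside 19.2% of all genes called. TRIB3 was then 0.86 (adjusted p = 0.00023) and ERN1 0.76 (adjusted p = 0.0394). CALR, the lectin chaperone calreticulin, was -0.54 (adjusted p = 0.0432) and SEL1L -0.30 (adjusted p = 0.0247). Between times 96 and 192 no member passed (0 of 34 by limma, beside 0.00843% of all genes). Before adjustment, 5 members were higher and 0 lower with p under 0.05, beside 367 and 372 of all 11865 genes. These 5 were CRELD2 (0.69, SE 0.14, adjusted p = 0.102), HSPA5, HYOU1, HERPUD1 and EDEM1.

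Compared as trends over the time steps, 5 members had a higher slope in the MYCN line than in the mock line and 1 a lower slope (17.6%, beside 24% of all genes, 11.2% higher and 12.8% lower). The mock slope itself was below 0 for STC2 (-0.15), DNAJC3 (-0.08), SDF2L1 (-0.08) and EIF4EBP1 (-0.02), and above 0 for TRIB3 (0.04) and ATF6 (0.10). Per step, counted 0 to 6 in the order of the times, the difference was 0.41, SE 0.07, adjusted p = 0.000124 for STC2, 0.13, SE 0.04, adjusted p = 0.00919 for TRIB3, 0.11, SE 0.03, adjusted p = 0.0225 for EIF4EBP1, 0.12, SE 0.04, adjusted p = 0.0205 for DNAJC3 and 0.16, SE 0.05, adjusted p = 0.0285 for SDF2L1. ATF6 was lower in the MYCN line by this measure (-0.11, SE 0.03, adjusted p = 0.0199). All 6 were called also without replicate 1 of time 192. Within the arrays of like hybridisation controls, replicate 3 and the mock line, STC2 (0.31), TRIB3 (0.15), DNAJC3 (0.12) and SDF2L1 (0.16) were called and EIF4EBP1 (0.09, adjusted p = 0.0628) and ATF6 (-0.07, adjusted p = 0.0943) were not. The EIF4EBP1 call also ended without replicate 1 and that of ATF6 without replicate 2. The 2 lines differ in PHOX2A and PTPRC as given above, and the part of such differences in these trends was not tested.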

How the data were processed

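RNA of 28 arrays was measured on an Affymetrix platform. The deposited values are MAS5 signal intensities; MAS5 and GCOS are named, without versions, in the submitters' processing notes, and the trimmed mean (2% at either end) of every array is 100. Values of 0 or less (91) were raised to 0.1 before taking log2. The brightest probe set naming 1 gene (41091 of 54675) stood for each of 19775 genes. Genes under the 40th percentile of mean log2 signal (12.8) were left out, and 11865 were tested with limma 3.58.1 in R 4.3.3 (lmFit, eBayes with trend, two-sided, Benjamini-Hochberg over all genes, threshold 0.05). The fit of the 7 MYCN-line times left 14 residual degrees of freedom, the mock trend 5, and the line by time step (0 to 6) interaction 24. The code was tested on simulated data. The number of arrays limits the precision.

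The members and lists were chosen with earlier results of these data known. Values in every array are given for members past the threshold at time 96, time 192 or in the difference in trend, and for ATF4 and DDIT3; for each further list the 3 genes with the smallest F-test p are named. Deviations of same-numbered arrays from the means of their times, set against time 0, correlated at 0.149, 0.129 and 0.226 at time 192. All 3 were above 0.1 at times 4 and 8 as well, and at times 24, 48 and 96 at least 1 was below 0.1. The main fit had no block, so it did not pair arrays at any time. Pairing by replicate number was used only in the alternative with the replicate block. There 35.1% of all genes were called at time 192, in place of 25.8%. Alternatives changed the scaling, filter, floor, probe set, block, time axis and arrays used.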

Additional observations from a re-analysis of the deposited data

Results flagged for a closer look

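For 6 members the trend over the time steps differed between the MYCN line and the mock line by a test of the difference itself (limma, adjusted over all genes, 21 and 7 arrays). STC2 differed by 0.41 log2 units per step (0.26 in the MYCN line, -0.15 in the mock line, adjusted p = 0.000124). TRIB3 differed by 0.13 (0.17 and 0.04, adjusted p = 0.00919). EIF4EBP1 differed by 0.11 (0.09 and -0.02, adjusted p = 0.0225). DNAJC3 differed by 0.12 (0.04 and -0.08, adjusted p = 0.0205), and SDF2L1 by 0.16 (0.08 and -0.08, adjusted p = 0.0285). ATF6 went the other way, by -0.11 (-0.01 and 0.10, adjusted p = 0.0199). The mock line has 1 array per time.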

How the results depend on the processing

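Over the alternatives, 483 of 647 gene calls kept their direction and side of the threshold, 164 lost the call and 0 reversed. CRELD2 at times 24, 48, 96 and 192, TRIB3 at times 96 and 192, STC2 at time 192, and the differences in trend of STC2, TRIB3, DNAJC3 and SDF2L1 were called in every alternative that gave a value. Where numbers moved the cause was not tested. With equal array medians the members higher were 0, 2, 2, 3 and 4 at times 8, 24, 48, 96 and 192, and lower 0 at time 8 and 1 at time 96; the mock trend had 0 higher and the difference in trend 0 lower. With the replicate block, 3 were higher and 4 lower at time 24, 2 lower at time 48, 1 higher at time 192 against 96 (CRELD2, adjusted p = 0.047), and 19 passed the F-test. With the hybridisation group as a block (replicate 3 against replicates 1 and 2, not named in the labels) these were 3, 3, 2 and 1. The share of all genes called grew too. At times 24 and 48 it was 14.9% and 23.9% with the replicate block and 13.5% and 22.7% with the hybridisation group, in place of 7.18% and 14.7%. The share of all genes passing the F-test with a block was not counted. In the alternatives without a block, the share of all genes called was counted only without replicate 1 of time 192. The block changed no other count of member calls by over 1.5 times. At time 8 none was higher with replicates 1 and 2 only, the floor of 16, no filter, no _s_at and _x_at probe sets, or only the arrays of the 2 times, which also left 0 lower. At time 96, 3 were higher with only the arrays of the 2 times, and 2 were lower with replicates 1 and 2 only or no filter, and 1 without _s_at and _x_at probe sets. The mock trend had 0 higher with the floor, no filter or the mean of probe sets, and 0 lower with the floor and 2 without _s_at and _x_at probe sets. The difference in trend had 0 lower with the mean of probe sets or replicate 3 and the mock line only. The median of ATF4 targets was 0.28 at time 4 with the mean of probe sets. At time 24 it was 0.27 with equal medians, 0.067 with no filter, 0.31 with the mean and 0.42 without _s_at and _x_at, and at time 192 it was 1.003 without them (1.29, 0.77 and 0.94 in replicates 1, 2 and 3). Leaving out these probe sets also changed which targets were in the list, and the values without them are those of TRIB3. The median of chaperones was -0.024 at time 4 with the mean and 0.0057 without _s_at and _x_at; at time 8 it was -0.21 with equal medians, -0.12 with the mean and -0.11 without _s_at and _x_at. It was -0.027 at time 24 and -0.23 in replicate 3 of time 192 with equal medians, and 0.000795 at time 96 without _s_at and _x_at. Leaving out single arrays or replicates gave 0 to 0 higher and 0 to 1 lower at time 8, 0 to 2 higher at time 24, 0 to 5 higher and 1 to 2 lower at time 48, 2 to 5 higher and 1 to 3 lower at time 96, and 4 to 8 higher and 1 to 3 lower at time 192. It gave 3 to 10 for the F-test, 0 to 1 higher and 0 to 2 lower in the mock trend, and 0 to 1 lower in the difference in trend. The F-test and the difference in trend without replicate 1 of time 192 were chosen after seeing the data.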
